A study of Mus musculus with 15 samples.

Results

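This report describes 42 lysosome and autophagy genes, out of 55385 genes in the count table, in bone marrow-derived macrophages (BMDMs) with and without STAT5. The genes were listed by name, with earlier results of these data known. Of them, 24 encode lysosomal hydrolases, the lysosomal protein NPC2, lysosomal membrane proteins, subunits of the vacuolar proton pump and the TFEB family. The other 18 encode the autophagy machinery. The 6 groups crossed genotype with treatment. STAT5 fl/fl BMDMs carry floxed Stat5 alleles, and STAT5 cKO BMDMs come from crosses of these mice with Csf1r-iCre mice. Csf1r-iCre is a Cre recombinase under the promoter of the M-CSF receptor gene, which is active in myeloid lineages and not in macrophages alone. The mice were BALB/c and 6 wk old, and the cells were cultured for 2 h in serum-free DMEM, in 20 ng/mL recombinant mouse GM-CSF (rmGM-CSF) or in 4T1 CM, the medium conditioned by the 4T1 mouse mammary tumor line. Each treatment was applied to cells of 2 STAT5 fl/fl mice (112 and 113) and 3 STAT5 cKO mice (114, 115 and 116), which gave 15 libraries.

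Lysosomes are acidic compartments in which hydrolases digest cargo delivered by endocytosis, phagocytosis and autophagy, and macrophages are rich in them. The vacuolar proton pump acidifies the lumen, and the transcription factors TFEB, TFE3 and MITF activate lysosome and autophagy genes through E-box sites known as CLEAR elements. Autophagy starts with the ULK kinase complex and the class III PI3-kinase complex, proceeds through membrane expansion and the conjugation of ATG8 proteins, and ends with fusion of the autophagosome and the lysosome. STAT5 is one of the factors through which the GM-CSF receptor signals, beside the MAPK and PI3K/Akt pathways. The comparisons ask how these genes respond to rmGM-CSF or 4T1 CM and whether the response differs when STAT5 is absent.

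The library totals ranged from 16016736 to 22883108 counts. Stat5a and Stat5b, the deleted genes, had at most 4 counts in any STAT5 cKO library and between 637 and 1654 counts in every STAT5 fl/fl library. The 8 macrophage markers were detected in every group, with a summed level of 24033 to 27501 CPM (counts scaled to the library total) in STAT5 fl/fl and 30086 to 42831 CPM in STAT5 cKO libraries. Most of that sum was Lyz2 (17036 to 19703 CPM in STAT5 fl/fl and 23365 to 34471 CPM in STAT5 cKO), whereas Csf1r lay at 3825 to 4204 CPM in all libraries and Mrc1 was lower in STAT5 cKO (60.4 to 138 CPM against 180.3 to 388 CPM). Summed neutrophil markers reached 2.5 CPM at most, lymphocyte markers 0.319 CPM and mast cell and basophil markers 0.103 CPM. The 6 epithelial markers summed to 3.16 to 4.34 CPM with 4T1 CM in STAT5 fl/fl, 1.23 to 2.17 CPM with 4T1 CM in STAT5 cKO and at most 0.137 CPM with DMEM. Nearly all of that sum was Cdh1 (3.07 and 4.34 CPM with 4T1 CM in STAT5 fl/fl), whereas Krt5 and Krt14 were at 0 in every library and Epcam, Krt8 and Krt18 reached 0.189 CPM at most. The 6 dendritic cell markers summed to 9.45 to 10.7 CPM with rmGM-CSF in STAT5 fl/fl and 4.12 CPM at most elsewhere, and the 7 fibroblast markers to 5.42 to 9.19 CPM in STAT5 fl/fl and 9.26 to 15.9 CPM in STAT5 cKO. The part of these markers in the results was not tested, and fewer cells of a type and less RNA per cell cannot be told apart in such bulk samples. The p-values below measure the spread between cultures of 2 or 3 mice per group.

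The CLEAR core was searched first, because the TFEB family forms part of the gene list. RefSeq promoter windows (GRCm38.p6, 250 bases before to 50 bases after a start site) were found for 33 of the 42 genes. The core TCACGTGA, a palindrome that reads the same on both strands, was present in 6 of 19 lysosome genes with a window and in 0 of 14 autophagy genes, against 1.12% of all 27025 genes with a window and 2.28% of the 9348 tested genes among them. The wider E-box CACGTG, which lies inside the CLEAR core, was present in 9 lysosome genes and in the 3 autophagy genes Atg14, Atg5 and Atg7, against 8.09% of all genes. The 6 CLEAR cores are shown because their genes encode different parts of the lysosome and responded differently to 4T1 CM. Each line gives 30 bases in the direction of the gene with the core in capitals.

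Mcoln1 (chr8:3500462-3500491, plus strand, 46 bases before the start): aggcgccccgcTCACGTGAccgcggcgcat
Gla (chrX:134601182-134601211, minus strand, 195 bases before the start): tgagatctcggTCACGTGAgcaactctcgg
Atp6v1a (chr16:44139373-44139402, minus strand, 132 bases before the start): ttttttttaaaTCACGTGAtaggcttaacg
Ctsd (chr7:142387908-142387937, minus strand, 99 bases before the start): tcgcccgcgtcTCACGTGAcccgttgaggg
Ctsa (chr2:164833749-164833778, plus strand, 13 bases before the start): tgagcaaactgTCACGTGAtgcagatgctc
Atp6v0d1 (chr8:105566050-105566079, minus strand, across the start): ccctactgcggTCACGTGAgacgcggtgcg

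Gla and Ctsa each held a further CLEAR core in the window. The STAT motif TTCNNNGAA, also a palindrome, was present in 0 of the 19 lysosome genes and in 2 of the 14 autophagy genes, against 9.55% of all genes. Both matches are shown because the deleted factor belongs to the STAT family.

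Wipi1 (chr11:109611528-109611557, minus strand, 158 bases before the start): acccagccgaTTCTCTGAAggaggggcggg
Gabarapl1 (chr6:129532968-129532997, plus strand, 214 bases before the start): tgttagagcaTTCTTTGAAttaacaaatta

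A match describes the letters of a window and is not evidence of binding.

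All 42 genes passed the filter on low counts (CPM above 1 in at least 2 libraries), and the smallest count of any of them in any library was 210. Levels per length (FPKM, fragments per kilobase of exon, scaled to depth) differed between the classes in the median, and the classes overlapped. The cysteine protease Ctss and the aspartic protease Ctsd had mean levels of 3058 and 3056 FPKM, followed by the cysteine protease Ctsb with 2502 FPKM. The carboxypeptidase Ctsz (999.5 FPKM), the membrane glycoprotein Lamp1 (882 FPKM) and the hexosaminidase subunit Hexa (825 FPKM) came next. Among autophagy genes, the cargo receptor Sqstm1 was the highest with 225 FPKM, the ATG8 protein Gabarapl1 followed with 64.7 FPKM, and the phosphoinositide-binding Wipi1 was the lowest with 4.23 FPKM. The lowest lysosome gene was the pump subunit Atp6v1h at 10.1 FPKM.

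**Figure D1:**
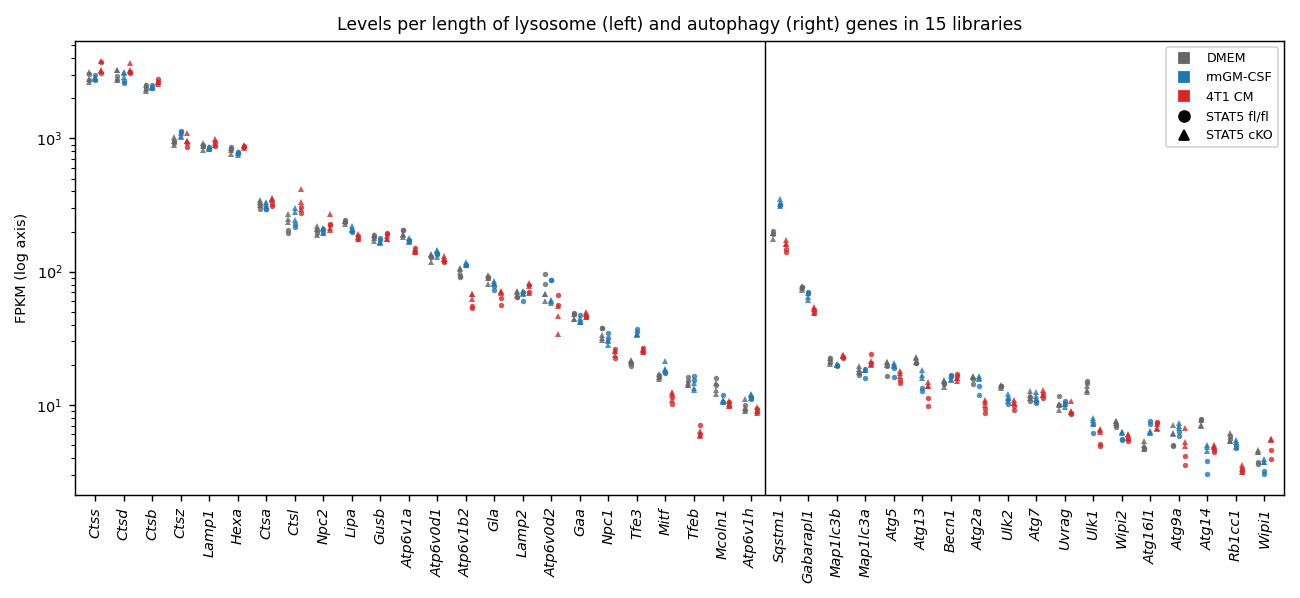
Levels per length of the 42 genes in every library, in FPKM on a log axis, with genes ordered by mean level within the lysosome class (left) and the autophagy class (right). Color gives the treatment and shape the genotype; Ctss, Ctsd and Ctsb lie highest and most autophagy genes lie between 3 and 25 FPKM.

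The median over the 24 lysosome genes lay between 130 and 162 FPKM in the 15 libraries, and the median over the 18 autophagy genes lay between 8.97 and 14.2 FPKM. The lysosome median was 144 to 162 FPKM with DMEM, 148 to 155 FPKM with rmGM-CSF and 130 to 137 FPKM with 4T1 CM. In CPM, which is not scaled to gene length, it was not lower with 4T1 CM (730 to 802 CPM, against 718 to 768 CPM with DMEM). The lysosome genes took 4.24 to 4.68% of all counts in a library with DMEM and 3.87 to 4.17% with rmGM-CSF, without overlap. Their share was 4.19 to 4.496% with 4T1 CM. The autophagy genes took 0.207 to 0.216% with DMEM and 0.147 to 0.167% with 4T1 CM in both genotypes, and the ranges did not overlap. With rmGM-CSF their share was 0.210 to 0.238%, in which the rise of Sqstm1 described below is included. These shares are not scaled by the normalization factors, which were 1.06 to 1.08 with DMEM and 0.945 to 0.995 with either stimulus. Scaled shares were not computed, so the contrasts of shares between treatments hold for raw counts only. The median autophagy level was 13.0 to 14.2 FPKM with DMEM, 10.6 to 11.8 FPKM with rmGM-CSF and 8.97 to 10.9 FPKM with 4T1 CM.

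When rmGM-CSF was compared with DMEM, the autophagy initiation genes Ulk1, Ulk2, Atg13 and Atg14 and the phosphoinositide effector Wipi2 fell in both genotypes. Sqstm1, the conjugation gene Atg16l1 and the transcription factor Tfe3 rose in both, and the lysosomal cation channel gene Mcoln1 fell in both. Over all genes tested, 10.9% rose and 7.78% fell in both genotypes. A gene was called when the adjusted p of edgeR's quasi-likelihood test, with Benjamini-Hochberg adjustment over all 13005 genes tested, lay under 0.01. In STAT5 fl/fl BMDMs, 5 of 24 lysosome genes (2 higher, 3 lower) and 7 of 18 autophagy genes (2 higher, 5 lower) were called, against 28.7% of all genes tested. In STAT5 cKO BMDMs the counts were 3 lysosome genes (2 higher, 1 lower) and 8 autophagy genes (2 higher, 6 lower), against 23.5% of all genes tested. The median log2 fold changes were -0.02 and -0.04 for lysosome genes and -0.13 and -0.07 for autophagy genes in STAT5 fl/fl and STAT5 cKO, beside -0.01 and -0.00 for all genes tested.

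Ulk1 encodes the kinase that starts autophagy (chr5:110784488-110810097, minus strand, GRCm38). Its normalized CPM was 97.6 and 94.7 with DMEM and 46.3 and 39.7 with rmGM-CSF in STAT5 fl/fl, and 84.6, 90.4 and 80.8 with DMEM and 49.6, 46.8 and 52.0 with rmGM-CSF in STAT5 cKO. Every rmGM-CSF library lay below every DMEM library of the same genotype. The log2 fold change was -1.16 ± 0.08 (SE, n = 2) in STAT5 fl/fl with an edgeR adjusted p of 4.53e-09, and -0.79 ± 0.07 (SE, n = 3) in STAT5 cKO with an edgeR adjusted p of 6.02e-08. Atg13, which encodes the regulatory subunit of the same kinase complex (chr2:91674618-91710576, minus strand), had 90.4 and 90.4 CPM with DMEM and 58.0 and 55.9 CPM with rmGM-CSF in STAT5 fl/fl. In STAT5 cKO it had 91.9, 97.7 and 99.96 CPM with DMEM and 69.7, 79.9 and 73.9 CPM with rmGM-CSF. The groups did not overlap in either genotype, and Atg13 fell by 0.67 and 0.37 on the log2 scale in STAT5 fl/fl and STAT5 cKO. The related kinase gene Ulk2 fell by 0.38 and 0.28, whereas Rb1cc1, the scaffold of the complex, changed by -0.23 and -0.11 and was not called.

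Atg14 directs the PI3-kinase complex to autophagy (chr14:47540893-47570649, minus strand). It had 34.1 and 33.2 CPM with DMEM and 13.1 and 16.4 CPM with rmGM-CSF in STAT5 fl/fl. In STAT5 cKO it had 29.8, 30.5 and 33.5 CPM with DMEM and 19.6, 21.8 and 20.9 CPM with rmGM-CSF. The rmGM-CSF libraries were below the DMEM libraries in both genotypes, with a log2 fold change of -1.18 ± 0.10 (SE, n = 2) in STAT5 fl/fl and -0.59 ± 0.08 (SE, n = 3) in STAT5 cKO. The other genes of that complex, Becn1 and Uvrag, were not called, with log2 fold changes of 0.21 and -0.04 in STAT5 fl/fl and 0.10 and 0.03 in STAT5 cKO. Wipi2 fell by 0.34 and 0.26 on the log2 scale.

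Sqstm1 encodes p62, which links ubiquitinated cargo to ATG8 proteins. Its values were 641 and 681 CPM with DMEM and 1081 and 1069 CPM with rmGM-CSF in STAT5 fl/fl, and 588, 656 and 657 CPM with DMEM and 1048, 1182 and 1076 CPM with rmGM-CSF in STAT5 cKO. The log2 fold changes were 0.70 ± 0.08 (SE, n = 2) and 0.80 ± 0.06 (SE, n = 3), and the difference between the genotypes of 0.10 ± 0.10 had an edgeR adjusted p of 0.785. Atg16l1, part of the enzyme complex that attaches ATG8 proteins to lipid, rose by log2 fold changes of 0.65 and 0.32. Tfe3 went from 183 and 192 CPM to 329 and 342 CPM in STAT5 fl/fl and from 197, 199.8 and 192 CPM to 312, 314 and 313 CPM in STAT5 cKO, with log2 fold changes of 0.84 and 0.67. Its relatives Tfeb and Mitf were not called, at 0.03 and 0.08 in STAT5 fl/fl and -0.05 and 0.25 in STAT5 cKO. Mcoln1 fell by 0.43 and 0.30.

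The 6 cathepsin genes had log2 fold changes from -0.09 to 0.27 with rmGM-CSF in STAT5 fl/fl and from -0.05 to 0.14 in STAT5 cKO, and none was called by edgeR. An unadjusted p under 0.05 was found for 1 and 0 of them, beside 6284 and 5588 of all 13005 genes. DESeq2 called Ctsz in STAT5 fl/fl and none in STAT5 cKO. Lipa (the acid lipase, -0.27) and Atp6v1a (the catalytic pump subunit, -0.25) fell and Atp6v1b2 (0.28) rose in STAT5 fl/fl alone by this threshold, and Atp6v1h (0.26) and Gabarapl1 (-0.21) passed it in STAT5 cKO alone. For these 5 genes the difference between genotypes was not called (edgeR adjusted p from 0.518 to 0.972). Leaving out mouse 112 or mouse 113 lost Lipa (adjusted p = 0.121 and 0.0420), Atp6v1a (0.0452 and 0.0934) and Atp6v1b2 (0.0330 and 0.0741). Atp6v1h was lost without 112, 113, 114 or 115 (0.0163 to 0.123) and Gabarapl1 without any 1 of the 5 mice (0.0161 to 0.0966). Without mouse 112 or mouse 113, which leaves a single STAT5 fl/fl library per group, Tfe3, Ulk1, Atg13, Atg14, Atg16l1 and Sqstm1 remained called in STAT5 fl/fl and Mcoln1 (adjusted p = 0.0207 and 0.0171) and Wipi2 (0.0160 and 0.0149) did not, and Ulk2 was lost without mouse 112 (0.0301). In STAT5 cKO, Mcoln1 was lost without mouse 114 (0.0557) or 115 (0.0403), Ulk2 without 114 (0.0198) or 116 (0.0166), Wipi2 without 114 (0.0111) or 115 (0.0121) and Atg16l1 without 115 (0.0106) or 116 (0.0113).

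**Figure D2:**
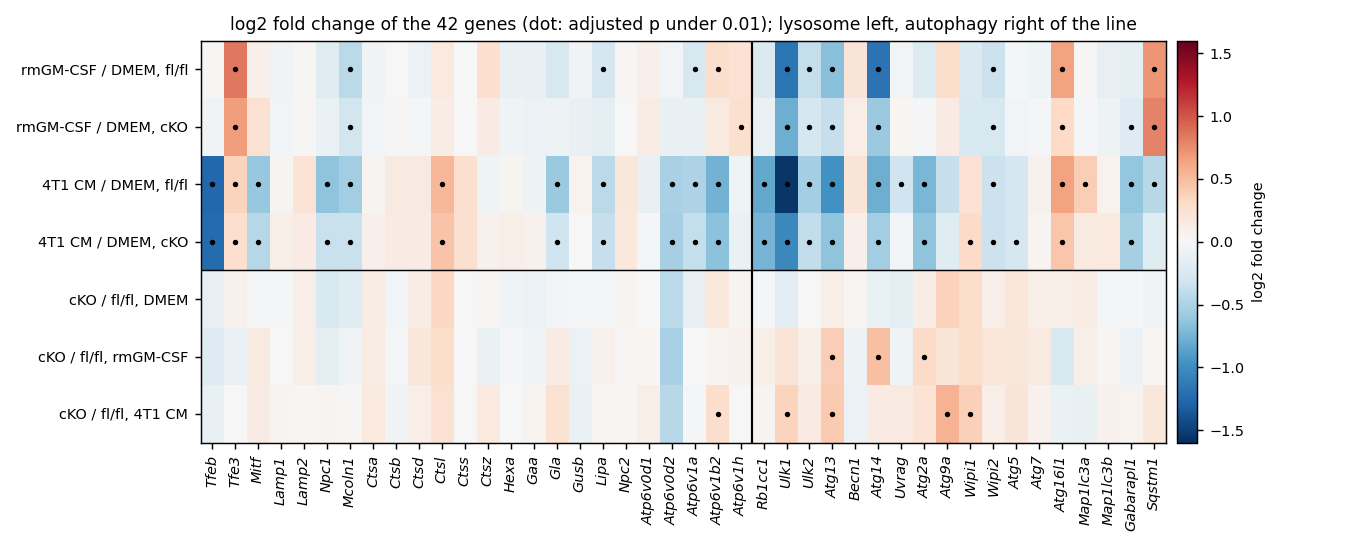
Fitted log2 fold change of each of the 42 genes (columns) in 4 treatment comparisons and 3 genotype comparisons (rows), with a dot where the edgeR adjusted p lay under 0.01. The upper rows carry most of the dots; Ulk1, Atg13 and Atg14 are lower with both treatments in both genotypes and Tfeb is lower with 4T1 CM alone.

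4T1 CM changed more of the genes than rmGM-CSF did. In STAT5 fl/fl BMDMs, 11 of 24 lysosome genes (2 higher, 9 lower) and 12 of 18 autophagy genes (2 higher, 10 lower) were called, against 37.2% of all genes tested, of which 19.1% were higher and 18% lower. In STAT5 cKO BMDMs, 11 lysosome genes (2 higher, 9 lower) and 11 autophagy genes (2 higher, 9 lower) were called, against 37.2% of all genes tested. The median log2 fold change was -0.07 and 0.03 for lysosome genes and -0.36 and -0.23 for autophagy genes in STAT5 fl/fl and STAT5 cKO, beside 0.01 for all genes tested in both. Both sets of treatment comparisons share the same DMEM libraries.

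**Figure D3:**
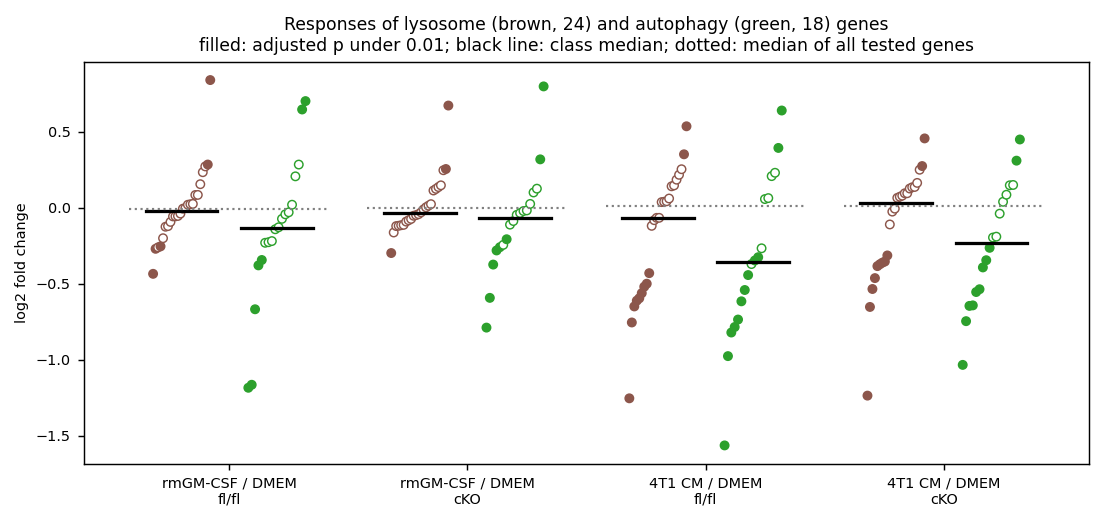
Fitted log2 fold change against DMEM of the 24 lysosome genes (brown) and the 18 autophagy genes (green), each point a gene, filled where the edgeR adjusted p lay under 0.01, with the class median as a black line and the median of all tested genes as a dotted line. The autophagy median is lowest with 4T1 CM, at -0.36 in STAT5 fl/fl and -0.23 in STAT5 cKO.

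All 4 genes of the ULK complex fell in both genotypes. Over all genes tested, 14.8% rose and 14.2% fell with 4T1 CM in both genotypes. Ulk1 had 32.0 and 33.1 CPM with 4T1 CM in STAT5 fl/fl and 42.9, 41.8 and 40.4 CPM in STAT5 cKO, and both groups lay below their DMEM libraries given above. Its log2 fold change was -1.56 ± 0.08 (SE, n = 2) in STAT5 fl/fl and -1.03 ± 0.07 (SE, n = 3) in STAT5 cKO. Atg13 had 42.8 and 49.3 CPM in STAT5 fl/fl and 60.3, 64.8 and 60.2 CPM in STAT5 cKO, a fall by 0.97 and 0.64 on the log2 scale. Rb1cc1 went from 85.3 and 82.2 CPM with DMEM to 46.1 and 48.9 CPM with 4T1 CM in STAT5 fl/fl and from 89.8, 78.4 and 78.1 CPM to 45.9, 48.6 and 52.4 CPM in STAT5 cKO. Rb1cc1 fell by 0.82 and 0.75, and Ulk2 fell by 0.54 and 0.39.

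Downstream of the kinase, Atg14 fell by 0.78 and 0.55 and the lipid transfer gene Atg2a fell by 0.73 and 0.64. Atg2a had 120 and 111 CPM with DMEM and 71.7 and 67.3 CPM with 4T1 CM in STAT5 fl/fl, and 127, 125 and 126 CPM with DMEM and 80.9, 84.4 and 77.1 CPM with 4T1 CM in STAT5 cKO. Gabarapl1, one of the ATG8 genes, fell by 0.61 and 0.54, and Wipi2 fell by 0.35 and 0.34. Atg16l1 was the only 1 of the 18 autophagy genes called higher in both genotypes, with log2 fold changes of 0.64 and 0.45. The other ATG8 genes did not fall: Map1lc3b was at 0.06 and 0.15 and was not called, and Map1lc3a rose in STAT5 fl/fl (0.39, and 0.25 without mouse 113, where it was not called) and was at 0.15 in STAT5 cKO. Becn1, Atg7, Atg9a and Map1lc3b were called in neither genotype, and Uvrag (-0.32, STAT5 fl/fl), Atg5 (-0.26, STAT5 cKO) and Wipi1 (0.31, STAT5 cKO) were called in 1 genotype.

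Sqstm1 fell by 0.44 with 4T1 CM in STAT5 fl/fl, to 501 and 473 CPM, and had 583, 538 and 540 CPM in STAT5 cKO, a log2 fold change of -0.20 with an edgeR adjusted p of 0.0167. Compared with rmGM-CSF, the log2 fold change with 4T1 CM was -1.14 ± 0.08 (SE, n = 2) in STAT5 fl/fl and -0.99 ± 0.06 (SE, n = 3) in STAT5 cKO, and each 4T1 CM library lay below each rmGM-CSF library.

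Among lysosome genes, the transcription factors fell with 4T1 CM apart from Tfe3. Tfeb (chr17:47737030-47792419, plus strand) had 85.2 and 91.6 CPM with DMEM, 93.4 and 86.7 CPM with rmGM-CSF and 34.2 and 40.0 CPM with 4T1 CM in STAT5 fl/fl. In STAT5 cKO it had 79.8, 79.5 and 82.3 CPM with DMEM, 76.1, 73.7 and 83.5 CPM with rmGM-CSF and 35.9, 33.1 and 33.7 CPM with 4T1 CM. All 5 libraries with 4T1 CM lay below the other 10, and the log2 fold change against DMEM was -1.25 ± 0.08 (SE, n = 2) and -1.23 ± 0.07 (SE, n = 3), with edgeR adjusted p values of 1.64e-09 and 1.04e-10. Mitf went from 105 and 101 CPM to 63.2 and 71.3 CPM in STAT5 fl/fl and from 106, 101 and 97.3 CPM to 74.8, 67.5 and 78.1 CPM in STAT5 cKO, a fall by 0.61 and 0.46. Tfe3 rose by log2 fold changes of 0.35 and 0.27, to 246 and 233 CPM and to 243, 239 and 230 CPM.

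The proton pump genes divided. Atp6v1b2, a subunit of the catalytic sector (chr8:69088646-69113711, plus strand), had 494 and 480 CPM with DMEM and 296 and 282 CPM with 4T1 CM in STAT5 fl/fl, and 529, 563 and 558 CPM with DMEM and 361, 360 and 329 CPM with 4T1 CM in STAT5 cKO. It fell by 0.75 and 0.65 on the log2 scale. Atp6v0d2, a membrane-sector subunit, fell by 0.52 and 0.53, and Atp6v1a fell by 0.50 and 0.38. Atp6v0d1, the other d subunit, was at -0.12 and -0.02 and Atp6v1h at -0.07 and -0.11, and neither was called.

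Of the lysosomal membrane genes, the cholesterol transporter Npc1 fell by 0.65 and 0.36 and Mcoln1 fell by 0.56 and 0.35, whereas Lamp1 (0.04 and 0.10) and Lamp2 (0.22 and 0.14) were not called. Of the hydrolases, the galactosidase Gla fell by 0.59 and 0.31 and Lipa fell by 0.43 and 0.37. Ctsl, an endopeptidase, was the only hydrolase among these genes that rose, from 1275 and 1331 CPM to 1788 and 1991 CPM in STAT5 fl/fl and from 1531, 1767 and 1612 CPM to 2149, 2686 and 1901 CPM in STAT5 cKO. The log2 fold changes of Ctsl were 0.54 ± 0.13 (SE, n = 2) and 0.46 ± 0.10 (SE, n = 3). The other 5 cathepsins lay between -0.07 and 0.25, and Hexa, Gaa, Gusb and the non-hydrolase gene Npc2 between -0.08 and 0.18. None of these was called by edgeR in either genotype, and DESeq2 also called Ctss in STAT5 cKO. Of the genes with a CLEAR core shown above, Mcoln1, Gla and Atp6v1a fell with 4T1 CM, and Ctsd (0.14 and 0.13), Ctsa (0.04 and 0.08) and Atp6v0d1 were not called.

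Against DMEM, Tfeb, Mitf, Npc1, Mcoln1, Atp6v1a, Atp6v1b2, Rb1cc1, Ulk1, Ulk2, Atg13, Atg14, Atg2a, Atg16l1 and Gabarapl1 remained called in both genotypes when any mouse was left out. In STAT5 fl/fl, Ctsl was lost without mouse 112 (adjusted p = 0.0333) or 113 (0.0754), Tfe3 (0.0189) and Lipa (0.0109) without 112, Wipi2 (0.0106), Sqstm1 (0.0330) and Map1lc3a (0.144) without 113, Atp6v0d2 without 112 (0.0714), 113 (0.0871) or 116 (0.0147) and Uvrag without 112 (0.0234), 113 (0.192) or 116 (0.0112). In STAT5 cKO, Gla (0.0208) and Atp6v0d2 (0.0173) were lost without 116, Ctsl (0.0142) without 114, and Atg5 (0.0409, 0.0295 and 0.0519) and Wipi1 (0.0196, 0.0259 and 0.0190) without 114, 115 or 116.

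In the direct comparison of 4T1 CM with rmGM-CSF, 9 lysosome genes were lower and none was higher in each genotype, against 30.9% of all genes called in STAT5 fl/fl (17% lower and 14% higher) and 34.1% in STAT5 cKO (17.5% lower and 16.6% higher). DESeq2 called 10 and 12 lysosome genes, among them Ctsl in both genotypes and Ctss and Hexa in STAT5 cKO, which were higher with 4T1 CM. The share of all genes called by DESeq2 was not computed. Mean Ctsl was 1889 CPM against 1451 CPM in STAT5 fl/fl and 2245 CPM against 1784 CPM in STAT5 cKO. In STAT5 cKO, mean Ctss was 4648 CPM against 3879 CPM and mean Hexa 1734 CPM against 1542 CPM. The 3 members of the TFEB family were lower in both genotypes. Tfeb differed by -1.28 and -1.18, Mitf by -0.69 and -0.71 and Tfe3 by -0.49 and -0.40 on the log2 scale. Atp6v1b2 differed by -1.04 and -0.80. Of the autophagy genes, 3 were higher and 7 lower in STAT5 fl/fl, and 2 were higher and 6 lower in STAT5 cKO. Wipi1 was higher in both genotypes, by 0.46 and 0.55, and Atg14 was higher in STAT5 fl/fl (0.40) and at 0.04 in STAT5 cKO. Tfeb, Tfe3, Mitf, Atp6v1b2, Sqstm1, Rb1cc1 and Atg2a remained called in both genotypes without any 1 mouse. In STAT5 fl/fl, Wipi1 was lost without mouse 112 (adjusted p = 0.0363) and Atg14 without 112 (0.142), 113 (0.0111) or 115 (0.0107). Without mouse 112 or 113, the count of lysosome genes in STAT5 fl/fl was 5 or 4, and without mouse 115 that in STAT5 cKO was 5.

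**Figure D4:**
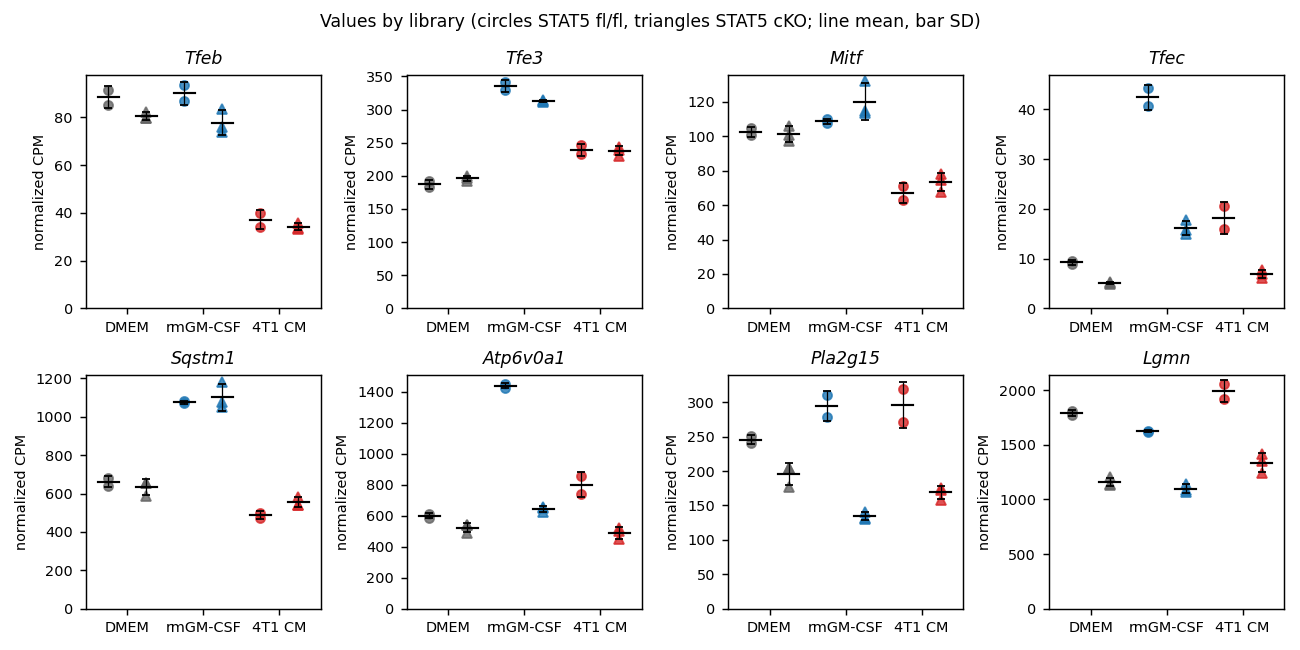
Normalized CPM in every library of the TFEB family (Tfeb, Tfe3, Mitf, Tfec), Sqstm1, the pump subunit Atp6v0a1, the phospholipase Pla2g15 and the protease Lgmn, for circles STAT5 fl/fl (n = 2) and triangles STAT5 cKO (n = 3), with the mean as a line and the SD as a bar. Tfeb is lower in all 5 libraries with 4T1 CM; Tfec, Atp6v0a1, Pla2g15 and Lgmn are lower in STAT5 cKO libraries with rmGM-CSF.

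The comparison of genotypes within a treatment asks which genes differ when STAT5 is absent. With DMEM, 0 of 42 genes were called between STAT5 cKO and STAT5 fl/fl by edgeR or by DESeq2, against 2.35% of all genes tested (0.923% higher and 1.43% lower), and 10 of 42 had an unadjusted p under 0.05, as did 2759 of all 13005 genes. With rmGM-CSF, 3 genes were called, against 9.93% of all genes tested (3.78% higher and 6.16% lower). All 3 encode autophagy proteins and were higher in STAT5 cKO BMDMs: Atg13, Atg14 and Atg2a. With 4T1 CM, 5 genes were called, against 7.44% of all genes tested (4.01% higher and 3.43% lower), and all 5 were higher in STAT5 cKO BMDMs: the autophagy genes Ulk1, Atg13, Atg9a and Wipi1 and the pump gene Atp6v1b2. No lysosome gene was called with rmGM-CSF, by edgeR or by DESeq2. An unadjusted p under 0.05 was found for 5 of 24, beside 3842 of all 13005 genes.

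Between the genotypes, the autophagy genes had a median log2 difference of 0.06 in DMEM, 0.12 after rmGM-CSF and 0.14 after 4T1 CM. The medians were -0.02, -0.00 and 0.03 for the lysosome genes and 0.00, -0.00 and 0.01 for all genes tested. With 4T1 CM, 15 of 18 autophagy genes and 16 of 24 lysosome genes had a positive difference, as did 6755 of all 13005 genes.

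With rmGM-CSF, the 3 STAT5 cKO libraries lay above both STAT5 fl/fl libraries for Atg13, Atg14 and Atg2a. These genes were already selected as called higher, so the lack of overlap adds no separate support. The share of all genes tested without overlap was not computed. The values of Atg13 (69.7 to 79.9 against 55.9 and 58.0 CPM) and Atg14 (19.6 to 21.8 against 13.1 and 16.4 CPM) were given above. Atg2a (chr19:6241668-6262335, plus strand) had 107 and 91.6 CPM in STAT5 fl/fl and 121, 122 and 126 CPM in STAT5 cKO. The log2 difference was 0.39 ± 0.07 for Atg13, 0.49 ± 0.10 for Atg14 and 0.31 ± 0.07 for Atg2a (SE, n = 2 against 3), with edgeR adjusted p values of 0.00137, 0.00172 and 0.00451. Atg13 was not called without mouse 112 (0.0114), 113 (0.0321) or 115 (0.0116), Atg14 without 112 (0.0689) or 115 (0.0161), and Atg2a without 113 (0.133), 114 (0.0182), 115 (0.0175) or 116 (0.0258), where its difference fell to 0.20 without 113.

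With 4T1 CM, the STAT5 cKO libraries again lay above the STAT5 fl/fl libraries without overlap for all 5 genes, which had likewise been selected as called higher. Atg9a, the lipid scramblase gene of the growing membrane (chr1:75180860-75192196, minus strand), had 24 and 20.3 CPM in STAT5 fl/fl and 30.3, 38.6 and 28.5 CPM in STAT5 cKO. Wipi1 (chr11:109573331-109611967, minus strand) had 20.4 and 17.3 CPM against 24.1, 24.6 and 24.6 CPM. The log2 differences were 0.55 ± 0.12 for Atg9a, 0.42 ± 0.08 for Atg13, 0.38 ± 0.08 for Wipi1, 0.36 ± 0.08 for Ulk1 and 0.28 ± 0.06 for Atp6v1b2 (SE, n = 2 against 3). The edgeR adjusted p was 0.000987 for Atg13 and between 0.00376 and 0.00495 for the other four.

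These 5 calls were lost when the model held only the groups compared (adjusted p from 0.0227 for Atg13 to 0.0800 for Atp6v1b2), and each was lost without at least 1 mouse. Atg13 was lost without mouse 112 (0.0425), Atg9a without 112 (0.0157), 113 (0.116) or 115 (0.0112), Wipi1 without 113 (0.140), 114 (0.0208), 115 (0.0269) or 116 (0.0273) and with no filter on low counts (0.0139), Ulk1 without 112 (0.0422), 113 (0.0372), 114 (0.0277) or 115 (0.0137), and Atp6v1b2 without 112 (0.0273), 113 (0.110), 114 (0.0249) or 115 (0.0282).

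**Figure D5:**
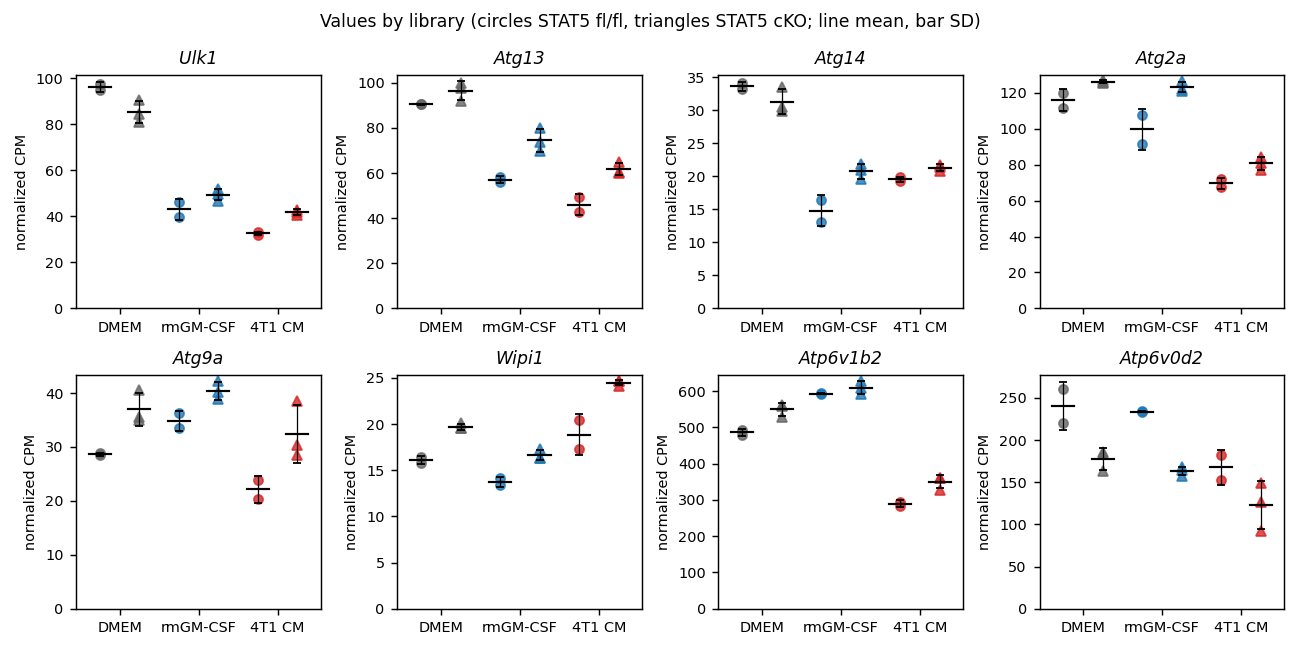
Normalized CPM in every library of the 7 genes called between genotypes and of Atp6v0d2, which was not called, for circles STAT5 fl/fl (n = 2) and triangles STAT5 cKO (n = 3), with the mean as a line and the SD as a bar. Ulk1 and Atg14 are lower in STAT5 cKO with DMEM on average and higher after either stimulus; Atp6v0d2 is lower in STAT5 cKO with each treatment.

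The responses themselves differed between the genotypes for 2 of the 42 genes. For rmGM-CSF the difference was called for Atg14, against 3.16% of all genes tested (0.884% higher in STAT5 cKO), and for 4T1 CM it was called for Ulk1, against 1.31% of all genes tested (0.761% higher). The fall of Atg14 with rmGM-CSF was smaller in STAT5 cKO by 0.59 ± 0.13 on the log2 scale (SE, n = 2 against 3, edgeR adjusted p = 0.00871). The fall of Ulk1 with 4T1 CM was smaller by 0.53 ± 0.11 (adjusted p = 0.00896). With DMEM, Ulk1 was lower in the 3 STAT5 cKO libraries than in both STAT5 fl/fl libraries, with a log2 difference of -0.17 that was not called (adjusted p = 0.169), and Atg14 differed by -0.10 with overlapping groups. Neither difference of response was called without any 1 of the 5 mice, with adjusted p values of 0.0147 to 0.222 for Atg14 and 0.0188 to 0.0885 for Ulk1. None of the 24 lysosome genes was called for either response by edgeR or DESeq2. An unadjusted p under 0.05 was found for 1 and 2 of them, beside 1926 and 1864 of all 13005 genes.

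Atp6v0d2, which encodes the d2 subunit of the pump (chr4:19876841-19922605, minus strand), had lower values after loss of STAT5 in each treatment. It was picked after its values were seen, so the lack of overlap given below adds no separate support. Its values in STAT5 fl/fl were 260.1 and 219.9 CPM with DMEM, 234 and 234 CPM with rmGM-CSF and 182 and 153 CPM with 4T1 CM. In STAT5 cKO they were 184, 163 and 186 CPM, 168, 165 and 158 CPM, and 149, 92.3 and 127 CPM. The groups did not overlap in any treatment, and the log2 differences were -0.43 ± 0.13, -0.52 ± 0.13 and -0.45 ± 0.14 (SE, n = 2 against 3). The edgeR adjusted p values of 0.0607, 0.0126 and 0.0340 did not pass the threshold, and all 3 passed it when genes were not filtered on low counts (7.77e-07, 3.78e-10 and 1.57e-07). With each mouse left out in turn the adjusted p ran from 0.0483 to 0.417 with DMEM, from 0.00261 (without mouse 115) to 0.0892 (without 113) with rmGM-CSF, and from 0.00651 (without 114) to 0.293 (without 112) with 4T1 CM. The 4T1 CM difference was -0.28 without mouse 115 (0.0965), and the DMEM difference was -0.31 without mouse 112 (0.417). With only the groups compared the adjusted p was 0.0111, 1.02e-05 and 0.156. Ctsl went the other way, higher in STAT5 cKO by 0.33, 0.30 and 0.25 with DMEM, rmGM-CSF and 4T1 CM. Like Atp6v0d2 it was not called between genotypes, and it too passed the threshold in each treatment without the filter.

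The neighbours of these genes in the same pathways were described from 6 lists with 146 genes, of which 143 were tested. Over all genes tested, rmGM-CSF called 16% higher and 12.7% lower in STAT5 fl/fl and 13.4% higher and 10% lower in STAT5 cKO, and the counts of small lists are given beside these shares without a test. With rmGM-CSF in STAT5 fl/fl, 2 of 37 other lysosomal hydrolase genes were higher and 6 lower, 3 of 21 other membrane genes were higher and 6 lower, and 4 of 14 other proton pump genes were higher and none lower. The pump subunit Atp6v0a1 (1.26) and the peptidase Ctsc (1.37) rose, and the sulfatase Sgsh fell by 0.94. Of 31 other autophagy core genes 4 were higher and 9 lower, with Vmp1, which acts in membrane formation, at 1.85 and Vps39, a tethering subunit, at -0.96. Of the 27 genes that control TFEB and mTORC1 4 were higher and 6 lower, and of 13 autophagy receptor genes 3 were higher and 5 lower. In STAT5 cKO the counts with rmGM-CSF were 2 higher and 3 lower hydrolase genes, 2 and 7 membrane genes, 2 and 1 pump genes, 3 and 7 control genes, 5 and 9 core genes and 2 and 4 receptor genes. The list medians in STAT5 fl/fl lay between -0.24 and 0.08.

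Over all genes tested, 4T1 CM called 19.1% higher and 18% lower in STAT5 fl/fl and 19% higher and 18.2% lower in STAT5 cKO, and several of the lists lay near these shares. With 4T1 CM in STAT5 fl/fl, 1 of 37 other hydrolase genes was higher and 7 lower, 2 of 21 membrane genes were higher and 10 lower, and 2 of 14 pump genes were higher and 2 lower. Of the control genes 4 were higher and 13 lower, and the stress-responsive Sesn1 and the folliculin partner Fnip1 had log2 fold changes of -2.54 and -1.70. Of the 31 other autophagy core genes 6 were higher and 14 lower, and of the receptor genes 2 were higher and 7 lower. Plekhm1, an adaptor for lysosome fusion, fell with a log2 fold change of -2.34, as did the ferritin receptor Ncoa4 (-1.76) and the cystine exporter Ctns (-1.31). The metal transporter Slc11a1 (1.16) and the core gene Vmp1 (1.79) rose, and Vmp1 also rose in STAT5 cKO (1.82). In STAT5 cKO the counts with 4T1 CM were 5 higher and 4 lower hydrolase genes, 4 and 10 membrane genes, 0 and 2 pump genes, 4 and 14 control genes, 5 and 12 core genes and 3 and 6 receptor genes. The list medians with 4T1 CM lay between -0.27 and 0.12 in STAT5 fl/fl and between -0.43 and 0.04 in STAT5 cKO.

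Between genotypes, the calls higher/lower in STAT5 cKO are given for hydrolase, membrane, pump, control, core and receptor genes in turn. They were 0/1, 1/1, 0/0, 1/2, 0/1 and 0/1 with DMEM, against 0.923% and 1.43% of all genes tested. For rmGM-CSF they were 1/3, 1/2, 0/2, 1/2, 1/1 and 1/2 (3.78% and 6.16%). For 4T1 CM they were 1/3, 1/0, 0/1, 2/1, 1/0 and 2/2 (4.01% and 3.43%). The genes named next were picked from these calls after their values were seen and are not all of them. Tfec, the fourth member of the TFEB family, had 8.88 and 9.62 CPM in STAT5 fl/fl and 5.10, 4.92 and 5.36 CPM in STAT5 cKO with DMEM. With rmGM-CSF it had 40.6 and 44.2 CPM against 15, 17.8 and 15.7 CPM, and with 4T1 CM 16.0 and 20.5 CPM against 7.0, 7.70 and 6.12 CPM. The log2 differences were -0.85, -1.39 and -1.39, with edgeR adjusted p values of 0.00107, 8.35e-08 and 1.17e-06, and the first was lost without mouse 113 (0.0280). Tfeb, Tfe3 and Mitf were not called between genotypes in any treatment, with differences from -0.21 to 0.14.

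Atp6v0a1 had 1453 and 1427 CPM with rmGM-CSF in STAT5 fl/fl and 648, 657 and 625 CPM in STAT5 cKO, beside 613 and 588 CPM and 543, 538 and 490 CPM with DMEM. Its difference between genotypes was -1.16 after rmGM-CSF and -0.71 after 4T1 CM. The lysosomal phospholipase gene Pla2g15 had 310.3 and 279 CPM against 129.7, 132 and 141 CPM with rmGM-CSF, a difference of -1.13, and differed by -0.81 with 4T1 CM. Both rmGM-CSF responses differed between the genotypes, by -0.96 for Atp6v0a1 and -0.80 for Pla2g15 (edgeR adjusted p = 1.72e-05 and 0.000304). Lgmn, an asparaginyl endopeptidase, differed by -0.63, -0.56 and -0.58 with DMEM, rmGM-CSF and 4T1 CM, and Slc11a1 by 0.43, 0.42 and 0.40. The calls of Slc11a1 were lost without mouse 113 in each treatment (0.0394, 0.0144 and 0.0334) and without mouse 112 with DMEM (0.0252), and that with 4T1 CM also with only the groups compared (0.0336). The autophagy receptor gene Nbr1 was higher in STAT5 cKO by 0.55 with rmGM-CSF and 0.43 with 4T1 CM, and its rmGM-CSF response differed by 0.55 (adjusted p = 0.00258). The call of Nbr1 with 4T1 CM was lost without mouse 113 (0.0280) and with only the groups compared (0.0218), and that of its response without 113 (0.0453), 115 (0.0185) or 116 (0.0227).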

How the data were processed

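The 15 stranded libraries hold RNA of BMDMs from 2 mice of the STAT5 fl/fl and 3 of the STAT5 cKO genotype. The authors trimmed the reads with Trimmomatic 0.33, aligned them to GRCm38 with HISAT2 2.1.0 and counted fragments per gene with featureCounts 1.6.2 (both ends mapped, mapping quality of at least 10, strand of the gene). The counts are as deposited, raw and not normalized. A further STAT5 fl/fl replicate removed by quality control is not analysed here. Gene symbols were matched for 55144 of 55385 genes. The other deposited columns per gene hold positions and the exon length, from which FPKM was computed. R 4.3.3 was used with edgeR 4.0.16 and DESeq2 1.42.0.

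The 13005 genes with a CPM above 1 in at least 2 libraries were fitted in 1 model of 6 groups (relative log expression normalization, quasi-likelihood F test, Benjamini-Hochberg adjustment over all genes, called under an adjusted p of 0.01) for 11 comparisons. SE is the absolute log2 fold change divided by the square root of F. A CPM of 1 is 16.0 to 22.9 counts, and the script was tested on simulated data. Samples were grouped by their labels. The number in a library's label is taken as the mouse, which pairs the treatments. Deviations from the group means of same-numbered libraries correlated by 0.0926 to 0.213 in STAT5 fl/fl (6 pairs) and 0.0548 to 0.214 in STAT5 cKO (9 pairs), so not every pair was over 0.1.

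The genes and lists were chosen with earlier results of these data known. Members called between genotypes, and the 5 with the largest mean change per class and direction among those called in both genotypes, were given with values. Of the other pathway genes, at most 2 per list and direction with the smallest adjusted p were to be named in a treatment comparison. Alternatives were TMM normalization, DESeq2, no filter, only the groups compared, each mouse left out and the mouse as a block. Promoter windows are RefSeq's (GRCm38.p6).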

Additional observations from a re-analysis of the deposited data

Results flagged for a closer look

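A few treatment responses differed between the genotypes by the interaction test. The rmGM-CSF response differed by 0.59 on the log2 scale for Atg14, by -0.80 for Pla2g15, by -0.96 for Atp6v0a1 and by 0.55 for Nbr1 (STAT5 cKO minus STAT5 fl/fl). The 4T1 CM response differed by 0.53 for Ulk1. Other genes of the pathway lists were also called, and these calls were not followed under the alternatives. They were Vps39 (0.49), Sesn2 (-0.75) and Atp6ap2 (-0.42) for rmGM-CSF, and Vps39 (0.44) and Ncoa4 (0.78) for 4T1 CM. Over all genes tested, 3.16% were called for rmGM-CSF and 1.31% for 4T1 CM. In STAT5 cKO the log2 fold change against DMEM was -0.47 for Vps39 with rmGM-CSF and -0.98 for Ncoa4 with 4T1 CM. With the mouse as a block the edgeR adjusted p was 0.00653 for Atg14 and 0.00743 for Ulk1. Atp6v0a1 and Pla2g15 remained called without any 1 of the 5 mice (highest adjusted p of 0.00157 and 0.00729), whereas Atg14 and Ulk1 did not, and Nbr1 was lost without 3 of them.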

How the results depend on the processing

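No result changed its direction under any alternative. With TMM normalization Atp6v1h (rmGM-CSF, STAT5 cKO; adjusted p = 0.0101) was no longer called, and with DESeq2 Atp6v0d2 (4T1 CM, STAT5 fl/fl; 0.0131), and 105 results kept their call in each. With the mouse as replicate block the adjusted p of Gabarapl1 (rmGM-CSF, STAT5 cKO) was 0.0107 and no other call was lost; the count of autophagy genes with 4T1 CM in STAT5 fl/fl was 14. The genotype effects within a treatment cannot be fitted with a mouse block, since each mouse has 1 genotype. With DESeq2, 5 lysosome genes were called for rmGM-CSF in STAT5 cKO, against 3.

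Without the filter on low counts, 2 lysosome genes and 1 autophagy gene were called between genotypes with DMEM, 2 lysosome genes with rmGM-CSF and 3 lysosome genes with 4T1 CM, against 0, 0, 0 and 1. With only the groups compared in the model, 2 lysosome genes were called between genotypes with rmGM-CSF, 0 lysosome and 0 autophagy genes with 4T1 CM, and 0 autophagy genes in either difference of responses. In that model 8 lysosome genes were called for rmGM-CSF in STAT5 fl/fl, against 5, and 6 autophagy genes for 4T1 CM against rmGM-CSF in STAT5 fl/fl, against 10. The cause of these shifts was not tested. The share of all genes called was not computed under any alternative, including DESeq2 and each mouse left out. The counts in this section are therefore no result about the lysosome or autophagy genes alone.

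With each mouse left out in turn, the genotype effect called 0 to 2 autophagy and 0 to 1 lysosome genes with rmGM-CSF, 1 to 3 autophagy and 0 to 1 lysosome genes with 4T1 CM, and 0 autophagy genes in both differences of responses. For rmGM-CSF, 1 to 5 lysosome and 5 to 7 autophagy genes were called in STAT5 fl/fl and 1 to 3 and 5 to 7 in STAT5 cKO. For 4T1 CM, 7 to 11 lysosome and 8 to 13 autophagy genes were called in STAT5 fl/fl and 9 to 11 and 9 to 11 in STAT5 cKO. For 4T1 CM against rmGM-CSF the ranges were 4 to 10 lysosome and 6 to 9 autophagy genes in STAT5 fl/fl and 5 to 9 and 5 to 9 in STAT5 cKO. Leaving out a STAT5 fl/fl mouse leaves 1 library per group, which is assumed to vary like the other groups.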
